A study of Mus musculus with 3 samples.

Results

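Enzymes that add methyl groups to histone lysines (writers) or remove them (erasers) were examined through the chromatin at their own genes in suprabasal keratinocytes of the mouse, the epidermal cells that have left the basal layer and differentiate. Members were chosen by symbol and chromosome: autosomal protein-coding genes whose symbol starts with Kdm, Kmt, Setd, Ezh, Suv39h or Nsd followed by a number. This gave 37 of 20665 autosomal protein-coding genes, 22 writers and 15 erasers on 17 chromosomes. The comparison of both classes by H3K4me3 width and DLX3 peak number was selected on earlier results of these data, so every value below is a description with no test.

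The study made chromatin immunoprecipitation libraries (ChIP-seq, which sequences DNA pulled down by an antibody together with the bound protein or histone mark) from wild-type BALB/c mice. An antibody to DLX3, a homeodomain transcription factor of epidermis, hair and teeth, gave 1 library, one to H3K4me3, trimethylated lysine 4 of histone H3, gave another, and nonspecific IgG gave the third. The labels call the mice adult while the series text has the cells purified from newborn skin on Percoll, and which holds was not settled here. Each antibody has 1 library, the IgG library was not analysed here, and read depth is unknown.

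Writers carry a SET domain and place mono-, di- or trimethyl groups on defined lysines. Methylation of H3K4 goes with active promoters and enhancers, of H3K36 with transcribed gene bodies, of H3K27 with Polycomb silencing, and of H3K9 and H4K20 with condensed chromatin. Erasers are either flavin-dependent amine oxidases (Kdm1a, Kdm1b) or JmjC dioxygenases. In mouse epidermis, Ezh1 and Ezh2, the catalytic subunits of the Polycomb complex PRC2, hold back differentiation genes, and Kdm6b, which removes H3K27 methylation, acts in the opposite direction.

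In the DLX3 list, 18087 peaks had scores of 50.01 to 3100 (median 83.35), and in the H3K4me3 list 16735 peaks had scores of 50 to 3233.06 (median 823.67). The scores are the authors' own values and were compared within a list only. H3K4me3 lay at 10 of 10 keratinocyte marker genes, at scores of 377.61 (Krt1) to 3100 (Perp). It lay at 4 of 6 fibroblast markers at scores up to 476.21 (none at Col3a1 or Lum) and at 3 of 6 immune markers (none at Ptprc, Cd3e or Lyz2). The immune marker peaks scored 934.20 at Cd3g, 1129.34 at Tyrobp and 2019.65 at Cd68. Of endothelial markers only Kdr of 5 had a peak, at 328.62. Among melanocyte markers Pmel had a peak score of 2282.68 and Dct one of 66.05, while Tyr, Tyrp1 and Mlana had none. Neuron markers had H3K4me3 at 4 of 5 genes, at scores up to 316.61, and none at Snap25. Marker genes were read over their span with 5 kb on either side, and whether a peak there lay nearer to another gene was not checked. In such windows 68.0% of all autosomal protein-coding genes had H3K4me3. The median top score of those genes was 1362.71, against 1185.78 at the keratinocyte markers and 1129.34 at the marked immune markers. The part that other cell types play in the peaks below was not tested.

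All 37 genes carried H3K4me3 and most also carried DLX3. A peak counted when at least 1 bp of it lay over the gene span or the 5 kb on either side. H3K4me3 was found at 37 of 37 genes (100%, 95% Wilson interval 90.6 to 100), against 68.0% of all autosomal protein-coding genes. DLX3 was found at 29 of 37 (78.4%, 62.8 to 88.6), against 43.4% of all. A DLX3 peak that overlapped H3K4me3 lay at 28 of 37 (75.7%, 59.9 to 86.6), against 35.1% of all. DLX3 was also more frequent at marked genes in general, and its share was higher still at those of like span or like peak width. Of all genes with H3K4me3, 61.1% had a DLX3 peak, and of those with a span between 26.6 and 77.8 kb, the interquartile range of the 37 genes, 64.3% did. Of marked genes whose widest H3K4me3 peak lay between 2724 and 4071 bp, again the interquartile range of the 37, 75.0% had one. The last 2 shares lie inside the interval of the 37 genes. These intervals cover counting error only.

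The 37 windows held 52 distinct DLX3 peaks, and 43 of them (82.7%, 70.3 to 90.6) overlapped H3K4me3, against 54.6% of the DLX3 peaks in the windows of all autosomal protein-coding genes. The 43 peaks had a median score of 112.08 (50.09 to 245.80), and the 9 others one of 58.24 (52.67 to 114.04). Over all DLX3 peaks in the windows of autosomal genes the medians were 93.37 on H3K4me3 and 75.33 off it, so higher scores on the mark were general. The highest-scoring peak of a gene lay on H3K4me3 in 27 of 29 genes. It was centred within 1 kb of a span end or annotated start in 19 of 29. Neither count was made over all genes. Of the 8968 autosomal protein-coding genes with DLX3, 7255 had a DLX3 peak on H3K4me3, whether or not it scored highest. No DLX3 peak lay at Setd1a, Setd4, Setd6, Nsd2, Kdm1a, Kdm3b, Kdm4c or Kdm5a, 15 genes had 1 peak, 8 had 2, 5 had 3, and Kdm6b had 6. Of the 37 genes, 14 (37.8%, 24.1 to 53.9) had 2 or more, against 16.3% of all. The 37 genes are also longer, with a median span of 52.3 kb against 17.5 kb over all autosomal protein-coding genes. The share with 2 or more was not counted among marked genes or genes of like span. Peaks nearer to another coding gene are included in these numbers.

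**Figure D1:**
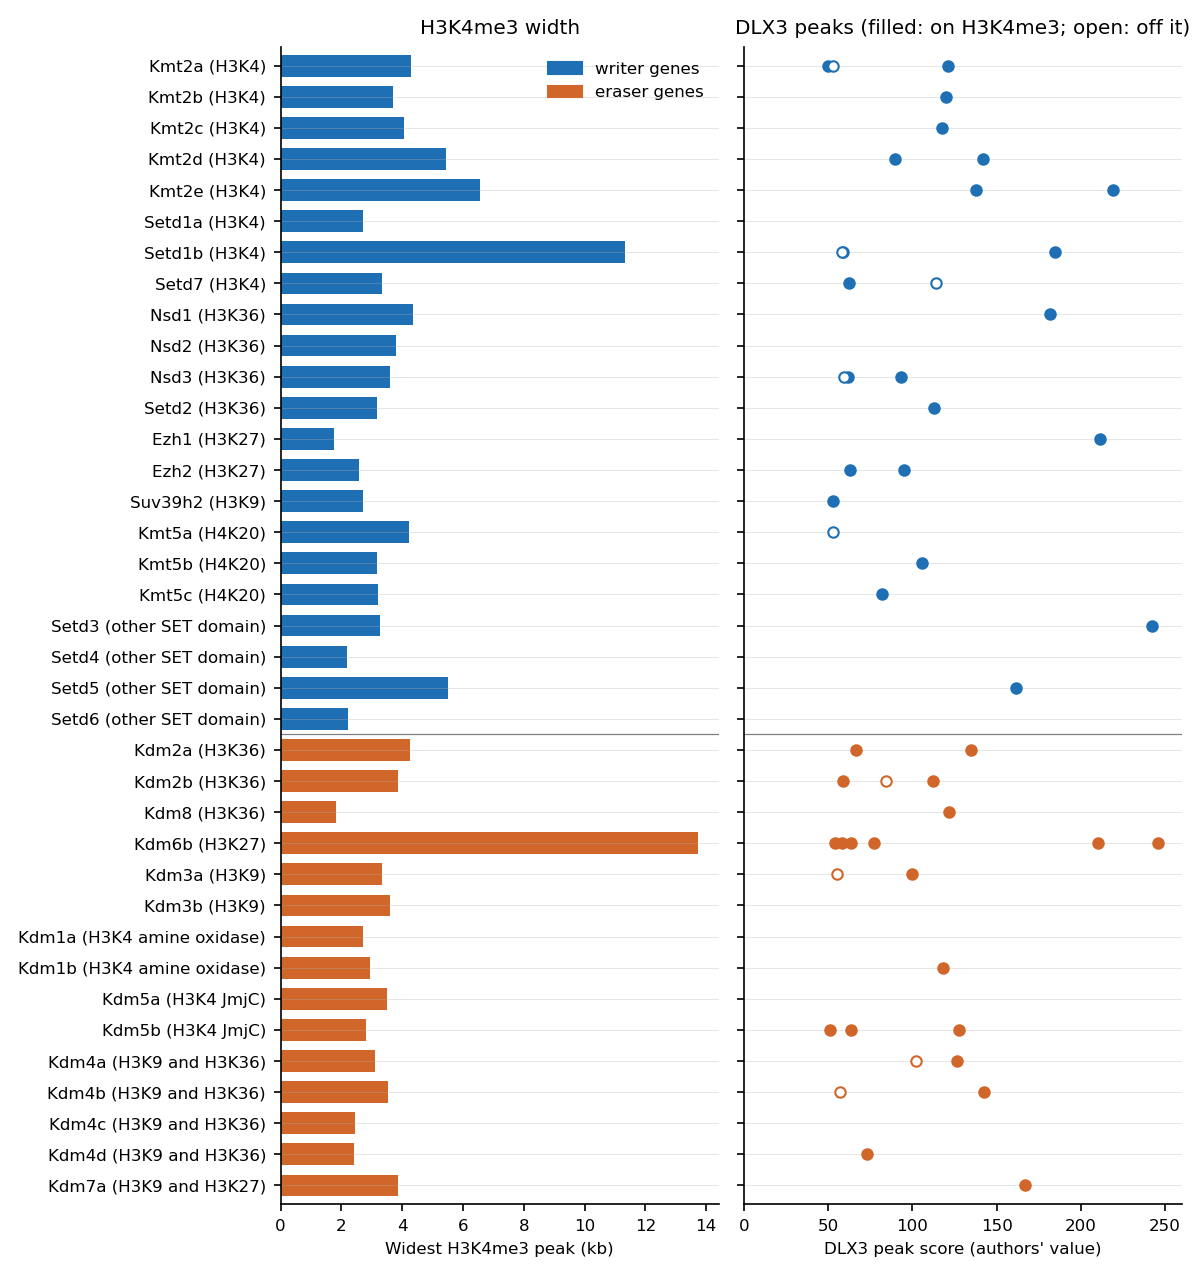
Width of the widest H3K4me3 peak in kb (bars, left) and the authors' score of every DLX3 peak (points, right, filled on H3K4me3 and open off it) for each of the 37 genes, writers above erasers. Labels give the group to which each gene was assigned, by lysine or as other SET domain, and not a shown activity. Kdm6b and Setd1b have the longest bars, at 13729 and 11345 bp, and DLX3 scores reach 245.80 at Kdm6b and 242.32 at Setd3.

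Promoter windows from RefSeq (GRCm38.p6, the assembly of mm10; 250 bases before to 50 after an annotated start) were matched for 26 of the 37 genes, with 36 starts, and for the other 11 genes only the span ends were used. With no count made over all genes for comparison, a DLX3 peak lay over such a window at 14 of the 26 genes. The 5 with the highest score there are printed 5′ to 3′ in the direction of transcription, to show what sequence lies under the strongest DLX3 peaks at these starts. Capitals mark matches, on either strand, to the homeodomain core TAATT, the CCAAT box, the AP-1 element TGANTCA or the GC box GGGCGG.
Setd3, chr12:108179235-108179534, minus strand, DLX3 score 242.32: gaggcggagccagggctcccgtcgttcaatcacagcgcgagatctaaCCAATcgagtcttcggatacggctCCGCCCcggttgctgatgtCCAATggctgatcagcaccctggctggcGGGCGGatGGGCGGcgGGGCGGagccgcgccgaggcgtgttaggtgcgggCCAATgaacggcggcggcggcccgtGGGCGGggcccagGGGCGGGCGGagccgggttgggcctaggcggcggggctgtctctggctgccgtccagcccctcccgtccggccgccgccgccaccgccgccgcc
Ezh1, chr11:101226414-101226713, minus strand, DLX3 score 211.22: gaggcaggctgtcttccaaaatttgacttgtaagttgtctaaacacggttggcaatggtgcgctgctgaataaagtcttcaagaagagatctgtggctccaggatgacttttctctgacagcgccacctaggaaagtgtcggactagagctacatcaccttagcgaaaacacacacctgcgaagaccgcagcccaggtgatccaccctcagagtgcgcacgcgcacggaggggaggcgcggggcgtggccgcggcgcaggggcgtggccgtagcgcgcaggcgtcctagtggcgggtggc
Kdm4a, chr4:118179994-118180293, minus strand, DLX3 score 126.20: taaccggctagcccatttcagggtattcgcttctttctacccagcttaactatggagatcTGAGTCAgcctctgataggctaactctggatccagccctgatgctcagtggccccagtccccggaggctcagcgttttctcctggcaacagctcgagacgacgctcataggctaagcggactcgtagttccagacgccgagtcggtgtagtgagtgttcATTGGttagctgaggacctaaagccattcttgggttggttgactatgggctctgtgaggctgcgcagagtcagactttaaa
Kdm8, chr7:125444370-125444669, plus strand, DLX3 score 121.89: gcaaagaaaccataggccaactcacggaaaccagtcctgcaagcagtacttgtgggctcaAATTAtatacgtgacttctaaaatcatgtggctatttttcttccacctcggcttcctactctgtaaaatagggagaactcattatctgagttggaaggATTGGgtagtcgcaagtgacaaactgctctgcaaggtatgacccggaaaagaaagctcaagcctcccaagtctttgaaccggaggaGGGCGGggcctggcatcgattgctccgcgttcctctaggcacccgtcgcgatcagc
Kmt2a, chr9:44881240-44881539, minus strand, DLX3 score 121.12: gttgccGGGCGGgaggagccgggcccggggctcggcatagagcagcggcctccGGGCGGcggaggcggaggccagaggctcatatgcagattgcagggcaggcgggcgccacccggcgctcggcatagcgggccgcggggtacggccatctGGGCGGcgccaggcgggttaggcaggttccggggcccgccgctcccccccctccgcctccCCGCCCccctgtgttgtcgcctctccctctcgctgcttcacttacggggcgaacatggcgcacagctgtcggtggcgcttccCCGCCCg

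The GC box was the commonest of these letters. In the Setd3 window it stood at 7 positions, some of them overlapping, beside 3 CCAAT boxes, and in the Kmt2a window at 5. The Ezh1 window held none of the motifs. The homeodomain core stood in the Kdm8 window alone of the 5. Over all 36 windows, some of which overlap, TAATT was present in 2 (5.56%), against 27% of 31396 autosomal promoter windows and 14.3% of the 13798 whose start lies in an H3K4me3 peak. The CCAAT box was present in 15 (41.7%), against 37.3% of all windows and 36.5% of those in H3K4me3. The AP-1 element TGANTCA was present in 3 (8.33%), against 7.84% and 4.36% in the same sets. The GC box GGGCGG was present in 24 (66.7%), against 36% and 67.9%. A match is a run of letters and not a shown site.

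Marked and unmarked starts stood apart in CpG content, the dinucleotide that is dense in CpG island promoters. Of the 36 annotated starts 33 lay inside an H3K4me3 peak, and their windows had a CpG ratio (observed over expected from C and G content) of 0.32 to 1.28, with a median of 0.92. The 3 starts outside H3K4me3 had ratios of 0, 0 and 0.09, so the sets did not overlap. These were the upstream start of Kdm4c, the third start of Kdm3a and the listed start of Setd5. Of all autosomal promoter windows with a ratio under 0.1, 2.28% had their start in H3K4me3, and of those at 0.3 or above, 71.2% did. Over all windows of the 37 genes the median ratio was 0.89, against 0.39 in all autosomal windows and 0.78 in those with H3K4me3.

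**Figure D2:**
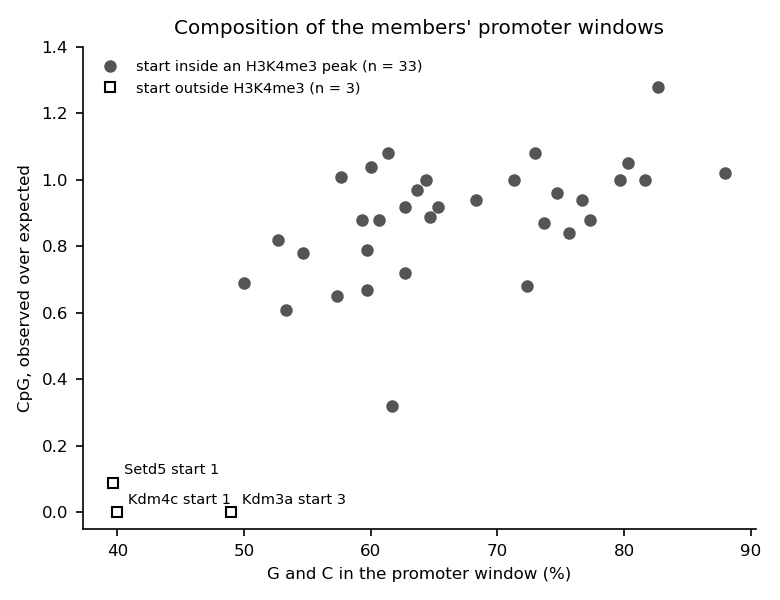
Percentage of G and C (x axis) and CpG ratio, observed over expected (y axis), of the 36 promoter windows, filled circles for starts inside an H3K4me3 peak and open squares for those outside. The 3 open squares lie at a ratio of 0.09 or below, under all 33 filled circles.

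Kdm4c, an eraser of H3K9 and H3K36 methylation, showed this within 1 gene. Its upstream start (chromosome 4, position 74242497) had no H3K4me3, and its second start (74251879) lay in a peak of 2456 bp (74250939 to 74253394, score 2846.85). The G and C content was 40% in the upstream window and 64.7% in the second. Both windows are printed because the mark separates them, a choice made after the values were seen.
Kdm4c upstream start, chr4:74242247-74242546, plus strand: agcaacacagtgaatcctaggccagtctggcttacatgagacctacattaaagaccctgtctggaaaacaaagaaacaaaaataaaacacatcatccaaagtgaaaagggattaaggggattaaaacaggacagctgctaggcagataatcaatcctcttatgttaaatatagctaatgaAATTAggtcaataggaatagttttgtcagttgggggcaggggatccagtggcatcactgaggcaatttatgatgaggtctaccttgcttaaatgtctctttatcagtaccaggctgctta
Kdm4c second start, chr4:74251629-74251928, plus strand: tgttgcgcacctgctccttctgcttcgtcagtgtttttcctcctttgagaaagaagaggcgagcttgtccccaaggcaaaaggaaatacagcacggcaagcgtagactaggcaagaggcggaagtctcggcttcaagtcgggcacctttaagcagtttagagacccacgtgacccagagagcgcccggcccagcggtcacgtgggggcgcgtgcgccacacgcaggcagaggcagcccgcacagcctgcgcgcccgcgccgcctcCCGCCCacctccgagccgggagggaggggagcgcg

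No DLX3 peak lay at either start of Kdm4c, and the nearest DLX3 peak was 1611.2 kb from the gene. At Kdm3a, an H3K9 eraser, the first 2 starts shared an H3K4me3 peak of 3321 bp with a DLX3 peak of score 100.01 centred 168 bp upstream. The third, unmarked start had a DLX3 peak of 55.06 centred 923 bp upstream of it. At Kdm2b, an H3K36 eraser that also brings a Polycomb complex to CpG islands, both pairs of starts were marked, by peaks of 3854 bp at the upstream pair and 2836 bp at the internal pair. DLX3 was centred 9 bp from an internal start, at a score of 58.65, and no DLX3 peak lay within 1 kb of the upstream pair. Kmt5a, the H4K20 monomethylase, had 2 H3K4me3 peaks over its 3 starts, 2138 bp at the first and 4222 bp over the others, and no DLX3 peak within 1 kb of any. Its single DLX3 peak (52.67) lay inside the gene, 7550 bp downstream of the last start and off H3K4me3. At Setd5, a SET domain gene of disputed activity, the listed start was unmarked, whereas the upstream end of the span had H3K4me3 of 5498 bp (chromosome 6, 113074549 to 113080046). The DLX3 peak there was 2015 bp wide with a score of 161.23.

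**Figure D3:**
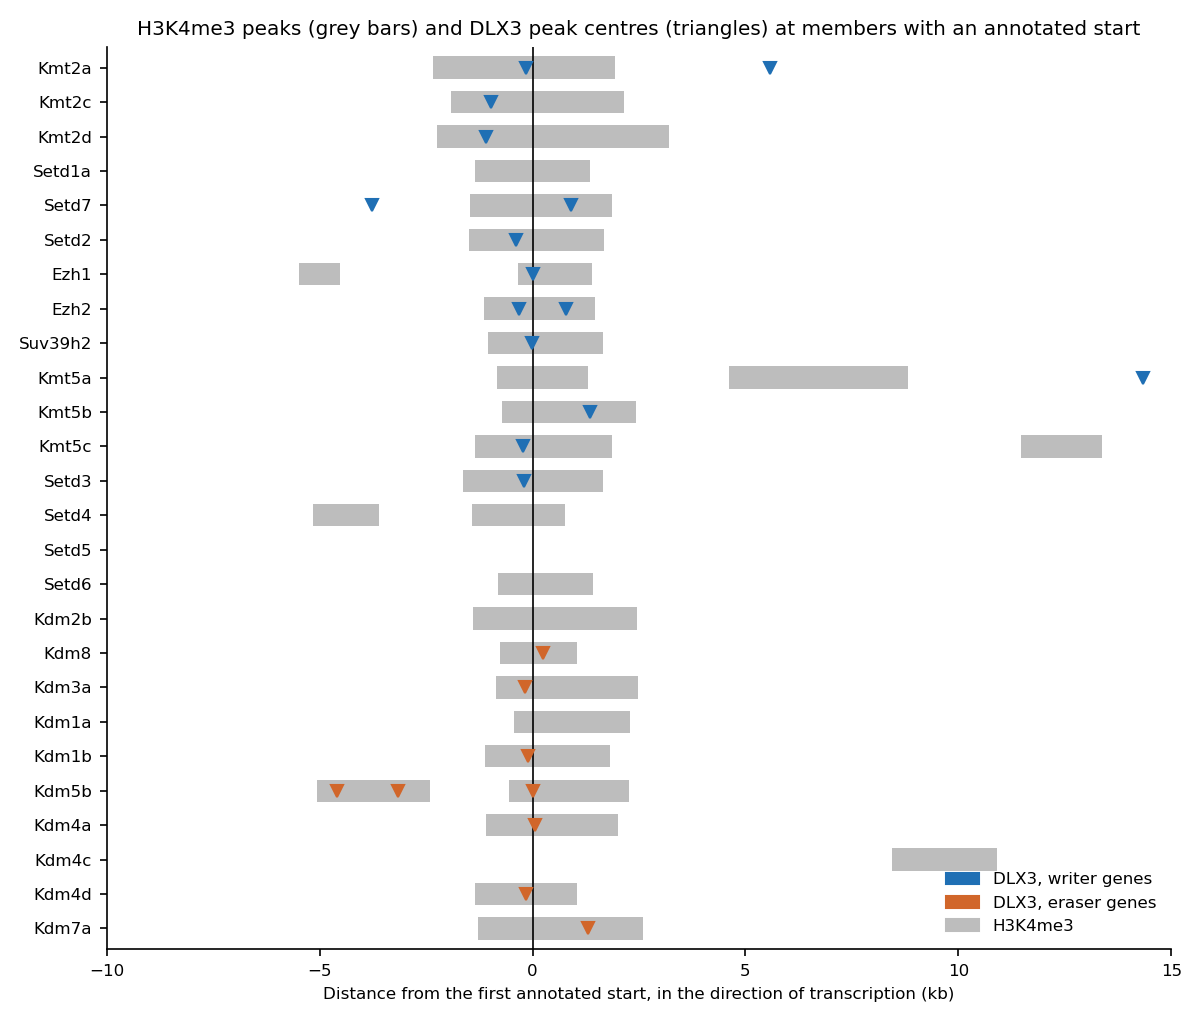
H3K4me3 peaks (grey bars) and DLX3 peak centres (triangles, blue for writers and orange for erasers) by distance in kb from the first annotated start, in the direction of transcription, for the 26 genes with one. Most triangles lie within 1 kb of the start and on a grey bar. Kdm4c has its bar downstream of the first start, and the peaks of Setd5 lie outside the range drawn.

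Among the members with annotated starts, 19 DLX3 peaks of 17 genes were centred within 1 kb of a start, 12 upstream of it and 7 downstream. The same count was not made over all genes. The peak at Suv39h2, an H3K9 writer, was centred 21 bp upstream, that at Ezh1 17 bp downstream, and that at Kdm5b 1 bp downstream.

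The H3K4 writers had the broadest marking among the writer groups with more than 1 gene. Their median for the widest peak was 4176 bp (range 2724 to 11345, 8 genes), against 3691 bp in the H3K36 writers and 2485 bp over marked autosomal genes. The group includes Kmt2e (6572 bp), and the 11345 bp peak at Setd1b was centred nearer to Rhof, so the median depends on how those genes are counted. The ranking was not repeated with those genes counted otherwise. Kmt2a, the founding mixed-lineage leukaemia gene, had 4281 bp with a DLX3 peak of 121.12 centred 148 bp upstream of the start. Its relative Kmt2b had 3682 bp with a DLX3 peak of 119.83 (chromosome 7, 30588543 to 30589544) centred 13 bp from the span end. The enhancer monomethylases Kmt2c and Kmt2d had 4071 and 5452 bp. Their DLX3 peaks of 117.42 and 142.14 were centred 973 and 1085 bp upstream of the listed starts. A second DLX3 peak in the Kmt2d window (89.82) lay at an end of Prkag1. Kmt2e, whose product is not known to methylate H3K4, had 6572 bp of H3K4me3 and 2 DLX3 peaks, of 218.93 (chromosome 5, 23432581 to 23433443) and 137.98. All 5 Kmt2 genes had DLX3 on H3K4me3, as did 28 of the 37 genes, 51.6% of marked autosomal genes and 35.1% of all autosomal genes.

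The other H3K4 writers were more uneven. Setd1b lay beside an H3K4me3 peak of 11345 bp (chromosome 5, 123134233 to 123145577, score 3100). Of its length, 7807 bp (68.8%) lay outside the Setd1b span, and an end of Rhof lay in it. The 3 DLX3 peaks in the Setd1b window (184.69, 58.65 and 58.24) were each nearer to another coding gene, Rhof or Hpd. A further DLX3 peak of 216.97 in the same domain ended 5068 bp from the span, just outside the window. Setd1a, the partner gene that like Setd1b encodes a broad H3K4 trimethylase, had 2724 bp of H3K4me3 and no DLX3 peak, the nearest being 7.9 kb from the gene. Setd7, an H3K4 monomethylase with many nonhistone substrates, had 3343 bp and 2 DLX3 peaks, of 62.51 at 893 bp downstream of the start and of 114.04 at 3767 bp upstream and off H3K4me3.

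H3K36 writers had H3K4me3 scores at or above 3100 in all 4 genes and widths of 3165 to 4348 bp. Such a score was reached at 16 of the 37 genes (43.2%) and at 8.74% of marked autosomal genes. Nsd1 had a DLX3 peak of 181.79 (chromosome 13, 55211007 to 55212113) inside the gene, 1778 bp from the span end. Setd2, the H3K36 trimethylase, had one of 112.58 centred 378 bp upstream of the start. Nsd3 had 3, of 93.19 on the H3K4me3 peak of 3595 bp at its end, 59.49 inside the gene and off H3K4me3, and 61.75 nearer to Letm2. Nsd2 had 3787 bp of H3K4me3 and no DLX3 peak, the nearest being 37.7 kb away.

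The 2 PRC2 catalytic genes differed in both measures. Ezh1 had the narrowest H3K4me3 of the 37 genes, 1742 bp at a score of 1539.96, and the fourth-highest top DLX3 score, 211.22 (chromosome 11, 101226075 to 101226817). Ezh2 had 2589 bp at a score of 3202.73, the highest H3K4me3 score of the group, and DLX3 peaks of 94.81 and 63.02 on either side of its start. Suv39h2, the autosomal H3K9 trimethylase of its pair, had 2698 bp and a DLX3 peak of 53.10. The H4K20 writers Kmt5b and Kmt5c had 3162 and 3220 bp, with DLX3 peaks of 105.66 and 82.20. Setd3, which methylates a histidine of actin, had 3273 bp and a DLX3 peak of 242.32 (chromosome 12, 108179044 to 108179913), whose nearest coding gene was Ccnk, with an end in the same H3K4me3 peak. Setd4, of uncertain substrate, and Setd6, which methylates the NF-κB subunit RelA, had 2194 and 2228 bp and no DLX3 peak.

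Among the erasers, Kdm6b stood apart. It had 13729 bp of H3K4me3 in 1 peak (chromosome 11, 69407824 to 69421552, score 2870.17), wider than in 99.9% of marked autosomal genes, and 12544 bp of it lay inside the gene. Its 6 DLX3 peaks came to 18.83 per 100 kb of window, against a maximum of 8.20 among the writers and a median of 2.21 over the 37 genes. The highest scored 245.80 (69418538 to 69419466) and 210.19 (69417423 to 69418095). The other 2 in the domain scored 53.96 and 58.18. The remaining 2, of 77.40 and 63.38, lay nearer to Naa38 and Tmem88. All 6 overlapped H3K4me3.

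Of the 4 erasers of H3K4 methylation, Kdm1b and Kdm5b had a DLX3 peak and Kdm1a and Kdm5a had none. Kdm1a, the first lysine demethylase described, had 2711 bp of H3K4me3 and no DLX3 peak, the nearest being 80.5 kb away. Its relative Kdm1b had 2928 bp and a DLX3 peak of 118.33 centred 117 bp upstream of the start, in an H3K4me3 peak shared with an end of Tpmt. Kdm5a, a trimethyl-H3K4 eraser, had 3499 bp at a score of 3100 and no DLX3 peak, the nearest being 68.7 kb away. Kdm5b, from the same family, had 2824 bp and 3 DLX3 peaks, of 50.80 at its start and of 127.50 and 63.37 on a separate H3K4me3 peak upstream, nearer to Mgat4e.

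Of the 10 erasers of H3K36 or H3K9 methylation, 8 had a DLX3 peak in the window, against 61.1% of marked autosomal genes, and the place of the peak varied. Kdm2a had 4270 bp of H3K4me3 and DLX3 peaks of 134.70 at 1488 bp inside its end and of 66.38 on a second H3K4me3 peak of 2428 bp within the gene. The highest DLX3 peak of Kdm2b, 112.08, lay on a weak H3K4me3 peak (202.29) inside the gene, and one of 84.45 lay off the mark. Kdm8, a JmjC protein whose demethylase activity has been questioned, had 1817 bp and a DLX3 peak of 121.89. Kdm4a had 3100 bp and DLX3 peaks of 126.20 at its start and of 101.97 near the far end, off H3K4me3. Kdm4b had 3547 bp and DLX3 peaks of 142.50 at 91 bp from a span end and of 57.29 inside the gene. Kdm4d had 2415 bp and 1 DLX3 peak of 72.89, both nearer to Cwc15. Kdm7a, which acts on H3K9 and H3K27, had 3877 bp and a DLX3 peak of 166.94 centred 1297 bp downstream of the start. Kdm3b, on chromosome 18, had 3586 bp and no DLX3 peak, the nearest being 20.1 kb away.

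Writers and erasers lay close together in median H3K4me3 width and median DLX3 peak number, and the ranges of both classes overlapped widely. The widest H3K4me3 peak had a median of 3469 bp in the 22 writers (1742 to 11345) and of 3321 bp in the 15 erasers (1817 to 13729), a difference of 148 bp. Its sign turned to -13 bp when windows were set at 5 kb from starts or ends, and also when peaks nearer to another gene were left out. Over all marked autosomal genes the median was 2485 bp, and 31 of the 37 genes lay above it. The median number of DLX3 peaks was 1 in writers (0 to 3) and 1 in erasers (0 to 6), and per 100 kb of window it was 2.27 in writers and 2.16 in erasers. That difference of 0.11 had no stable sign, and was -0.37 with 1 kb on either side, -0.12 with peaks at or above the median score, -0.33 without peaks nearer to another gene, and -0.73 for means. At least 1 DLX3 peak was present at 18 of 22 writers (81.8%, 61.5 to 92.7) and at 11 of 15 erasers (73.3%, 48.0 to 89.1). Writers with 2 or more numbered 7 of 22 (31.8%, 16.4 to 52.7), and erasers 7 of 15 (46.7%, 24.8 to 69.9). In each of these counts the intervals of both classes overlap, which does not show that the classes are alike. Genes of 1 library are not replicates, so a difference between the classes was not tested.

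**Figure D4:**
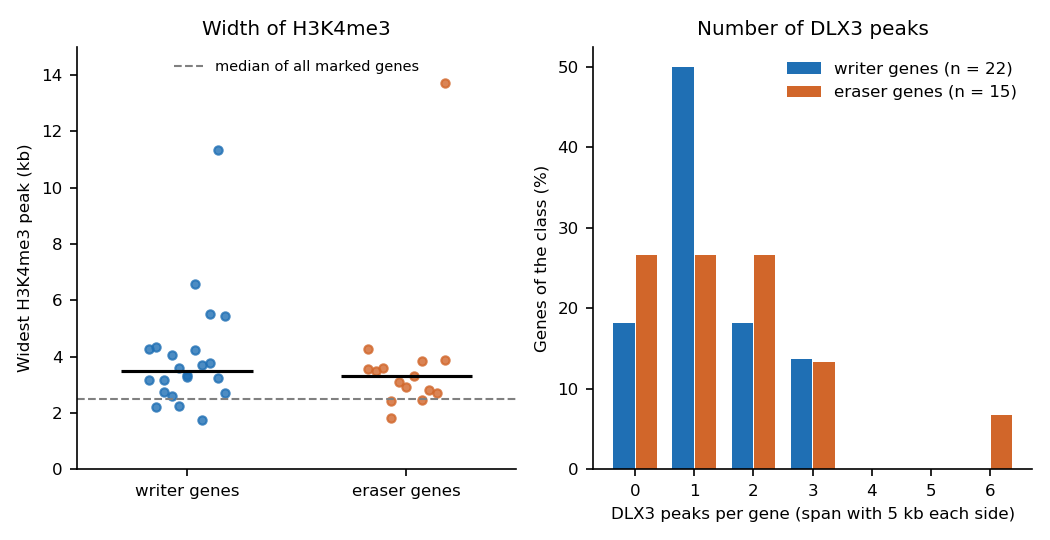
Left, width of the widest H3K4me3 peak in kb for each writer and eraser gene (points) with the class median (black line, 3469 and 3321 bp) and the median of all marked autosomal genes (dashed, 2485 bp). Right, percentage of each class by number of DLX3 peaks per gene; most genes of both classes have 0 to 2.

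Other H3K4me3 measures were also read without the peaks centred nearer to another coding gene. The summed width of all H3K4me3 peaks in the window had a median of 5017 bp in writers and 3547 bp in erasers. Without the peaks that lay nearer to another coding gene it was 3308 bp in writers and 3321 bp in erasers, a difference of -13 bp, so the gap was no longer there. The peaks left out numbered 16 of the 59 H3K4me3 peaks in the windows, a share not counted over all genes. Some of them also covered an end of the member, such as the 11345 bp peak at Setd1b and the only peak at Kdm4d. Leaving them out thus removed more than the peaks of neighbours. An H3K4me3 score of 3100 or above was reached at 12 of 22 writers (54.5%, 34.7 to 73.1) and 4 of 15 erasers (26.7%, 10.9 to 52.0), against 8.74% of all marked autosomal genes. The intervals of both classes overlap here too, and this difference was likewise not tested. Without peaks nearer to another coding gene the count was 11 writers and 4 erasers, since Setd1b reaches 3100 only through the peak nearest to Rhof. Many peaks stand at exactly 3100, where the score has its usual ceiling.

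Wider H3K4me3 went with DLX3. The widest peak had a median of 3547 bp in the 29 genes with a DLX3 peak and 2717.5 bp in the 8 without, and over all marked autosomal genes 2746 bp with DLX3 and 2075 bp without. Peaks over 5000 bp stood at 5 of the 37 genes (13.5%, 5.91 to 28.0), namely Kmt2d, Setd5, Kmt2e, Setd1b and Kdm6b, against 4.90% of marked autosomal genes. All 5 had a DLX3 peak on the domain, though at Setd1b those in the window were nearer to Rhof. The share with DLX3 on the domain was not counted over all genes with peaks this wide. At 11 genes the widest peak also held an end of another protein-coding gene: Kmt2b, Setd1b, Nsd2, Suv39h2, Setd3, Kdm2a, Kdm6b, Kdm1b, Kdm5a, Kdm5b and Kdm4d. There the mark, and DLX3 on it, cannot be told apart between neighbours. Of the 52 DLX3 peaks, 12 lay nearer to another coding gene. Neither this count nor that of the 11 genes was made over all genes. The outermost DLX3 peaks inside a window lay 4.1 kb (Kdm5b), 3.9 kb (Nsd3) and 3.5 kb (Kmt2a) from the span. The first outside a window lay 5.1 and 5.7 kb (both Setd1b) and 6.1 kb (Kmt2b) from it.

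Genes of related enzymes and partner subunits outside the symbol rule were read in the same way. Of 9 other JmjC family genes, 8 had a DLX3 peak and 9 had H3K4me3. They were led by Hr, the hairless gene of the hair cycle, with 331.14 and an H3K4me3 peak of 8781 bp, Jarid2, a PRC2 cofactor, with 300.87 and 6079 bp, and Rsbn1 and Jmjd1c with 242.32 each. Of 9 PRC2 subunit genes, Jarid2 again included, 8 had DLX3 and 9 had H3K4me3, among them Rbbp4 (190.26) and Suz12 (153.87). Of 13 subunit genes of the H3K4 methyltransferase complexes 8 had DLX3, led by Wdr5 (162.06), Pagr1a (149.61) and Dpy30 (139.38), and 13 had H3K4me3. Of 16 other lysine writers 11 had DLX3 and 15 had H3K4me3, led by Smyd5 (273.85), Smyd3 (230.88) and Ehmt1 (199.01). Of 9 arginine methyltransferase genes 5 had DLX3 and 8 had H3K4me3, led by Carm1 (241.04), Prmt9 (128.44) and Prmt3 (82.94). Over all autosomal protein-coding genes the shares were 43.4% with DLX3 and 68.0% with H3K4me3, and 61.1% of those with H3K4me3 had DLX3. The counts of 8 of 13, 11 of 16 and 5 of 9 lie near that last share.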

How the data were processed

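Per the submitters' processing notes, Bowtie 1.1.2, MACS 1.4.2 and HOMER were used with build mm10. The sources used here do not state their roles or settings. The authors deposited 1 peak list per library for DLX3 and H3K4me3, with a score per peak in the form of the MACS peak score. The scores depend on depth and peak width. Peak positions count from 1. Genes and promoter windows came from RefSeq tables of GRCm38.p6, the assembly of mm10.

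Peaks were joined to genes by at least 1 bp over the span with 5 kb on either side, with Python 3.11.15 and numpy 2.4.6. The joining code was tested on simulated data. Wilson intervals (95%) came from scipy 1.17.1. With 1 library per antibody no test between conditions was possible. Nearest genes were taken by distance from the peak centre to coding spans. Genes were named by rule: all 37, the 5 promoter windows with the highest DLX3 score, and the 3 highest-scoring genes of each partner list. Members, lists and classes were chosen with earlier results of these data known. Class membership follows family names. Alternatives covered windows, score thresholds, peak assignment, width measure and class makeup. Ezhip matched no autosomal gene.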

Additional observations from a re-analysis of the deposited data

How the results depend on the processing

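With 7 or 8 alternatives each, the counts of genes with H3K4me3 (28 to 37 of 37), with DLX3 and with DLX3 on H3K4me3 stayed within 1.5 times of the values given, except when each list was limited to its highest-scoring 20% of peaks. There 10 genes had DLX3, against 13.1% of all autosomal protein-coding genes, and 8 had it on H3K4me3, against 5.43%. The difference between writers and erasers in median H3K4me3 width was 148 bp. It was -13 bp within 5 kb of starts or ends and when peaks nearer to another coding gene were left out, 758 bp with the top 20% of peaks, and 1470 bp for the summed width. The summed width without peaks nearer to another coding gene, an alternative chosen after seeing the data, gave -13 bp. The difference in median DLX3 peak number was 0, and became 1 with 20 kb on either side, -0.50 without the 6 members of doubtful histone lysine activity, and -0.33 for means. Per 100 kb it was 0.11, and became -0.37 with 1 kb on either side, -0.12 with peaks at or above the median score, -0.33 with peaks nearest to the member, -0.73 for means, 0 with the top 20%, and 0.54 without the doubtful members. Within 5 kb of starts or ends only the unmarked listed start of Setd5 was used, so its peak of 5498 bp was lost. With peaks nearest to the member, Setd1b went from 11345 to 1762 bp. Each of these writers thereby fell below the class median, which was 3308 bp in both settings. The cause of the other moves was not tested. No paired analysis was possible because each antibody has 1 library. Leaving out a replicate was likewise not possible. Depth is unknown, so the absence of a peak says only that none was listed.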

Other observations

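The relatives on the sex chromosomes fall outside the symbol and chromosome rule. Kdm5c, an X-linked H3K4 eraser, had 3610 bp of H3K4me3 and 1 DLX3 peak of score 137.77. Kdm6a, the X-linked relative of Kdm6b, had 3390 bp at a score of 3100, and Suv39h1 had 2197 bp at 991.23. Neither of those 2 had a DLX3 peak. Kdm5d on chromosome Y had 1316 bp of H3K4me3 at a score of 176.50 and no DLX3. Of X-linked coding genes with H3K4me3, 102 of 433 (23.6%) had a DLX3 peak, against 61.1% on the autosomes. Sex and the copy number of the X were not taken into account, and the cause of this difference was not tested.

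Smyd3, a lysine methyltransferase gene outside the symbol rule, had 13 DLX3 peaks in its window, the highest at 230.88, and none of them overlapped H3K4me3. At Kdm6b 6 of 6 DLX3 peaks did. Longer genes have room for more peaks. Per 100 kb of window, Kdm6b had 18.83 DLX3 peaks, and genes in the list that holds Smyd3 had at most 7.94. Kdm6b spans 21.9 kb, and genes in the list that holds Smyd3 span 12.1 to 566.1 kb.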
